A study of Mus musculus with 9 samples.

Results

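The tuft cell genes followed here were Pou2f3, Gnat3, Trpm5, Sucnr1, Il25, Il17rb, Alox5, Avil and Dclk1, 9 of the 50600 genes counted, taken by symbol from the tables of raw counts and of TPM (read counts corrected for gene length, with an equal total in all libraries). RNA came from 9 mouse libraries in 3 groups of 3 replicates. In 6 of them, organoids of normal small intestine (genotype WT, strain C57BL/6), which are epithelial buds grown in Matrigel, had been kept for 24 hr in a mix of organoid medium and conditioned medium, either from tumoroids (T-cM) or from WT organoids (WT-cM). The other 3 libraries were untreated tumoroids, grown from intestinal tumours of Apc1638N/+ mice of strain MIX, which carry 1 germline mutant copy of Apc. The tumoroids therefore differed from the organoids in genotype, labelled strain and tissue of origin. They also differed in medium by the study's methods, since tumoroids were kept without R-spondin. On strain, those methods instead give a mixed background for all the mice. By the study's methods, the mice that gave tumoroids were also older than those that gave WT organoids. The titles and the treatment fields of the 6 organoid libraries name opposite media. The group names T-cM-titled and WT-cM-titled follow the titles, and each direction between them would be turned round were the treatment field right.

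Tuft cells are rare chemosensory cells of the intestinal epithelium with an apical bundle of microvilli. They depend on the transcription factor Pou2f3, sense luminal compounds such as succinate through G protein-coupled receptors, and pass the signal through the cation channel Trpm5. In the small intestine they are known for releasing Il25 and leukotrienes during worm infection, which activate type 2 innate lymphoid cells, whose Il13 in turn expands the tuft lineage. All values are from whole cultures, in which fewer tuft cells and less RNA per tuft cell cannot be told apart.

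The cultures expressed epithelial markers in all libraries, with Epcam between 739 and 1152 CPM (counts relative to library size after TMM normalisation). The 6 epithelial markers summed to at least 9321 CPM in organoids and to between 5750 and 6064 CPM in tumoroids, where Vil1 (−2.20 and −2.10 on the log2 scale against the WT-cM-titled and T-cM-titled groups) and Krt19 (−1.03 and −1.19) were called lower. The number of reads assigned to genes ranged from 16541635 to 25170966 a library, and 3 counts, the floor used here, corresponded to between 0.103 and 0.204 CPM. Sucnr1, Gnat3 and Il25 lay at or near that floor in organoids. Of the 9 members, 7 passed the filter of at least 1 TPM in at least 1 library and were tested, and Il25 and Gnat3 did not pass it. Sucnr1 passed it through tumoroids alone (at most 0.90 TPM in organoids) and Alox5 through organoids alone (at most 0.22 TPM in tumoroids), so that each entered the test through the group in which it was high. A gene was called at an adjusted p below 0.05 with an absolute log2 fold change above 1, by edgeR's quasi-likelihood test on counts with Benjamini-Hochberg adjustment over all 16208 genes tested.

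Per gene length, Avil and Trpm5 were the most abundant members in organoids. Mean TPM in WT-cM-titled organoids was 6.93 ± 0.22 for Avil, 4.90 ± 0.30 for Trpm5, 2.84 ± 1.59 for Il17rb, 2.53 ± 0.30 for Dclk1, 2.20 ± 0.07 for Pou2f3 and 1.61 ± 0.89 for Alox5 (SD, n = 3). Gnat3, Sucnr1 and Il25 had mean TPM of 0.48 ± 0.14, 0.42 ± 0.18 and 0.28 ± 0.25 in the same group. Avil lay above Trpm5 in every library of the group, while from Trpm5 down each neighbour in the order overlapped the next over the 3 libraries, except that Alox5 lay above Gnat3. In tumoroids the order was Avil (45.2 ± 10.9 TPM), Pou2f3 (13.4 ± 2.74), Sucnr1 (8.14 ± 8.31), Il17rb (5.17 ± 2.59), Trpm5 (4.83 ± 2.08), Dclk1 (2.26 ± 1.38), Gnat3 (0.21 ± 0.36), Il25 (0.12 ± 0.12) and Alox5 (0.11 ± 0.11). Among neighbours in that order, Avil lay above Pou2f3 and Dclk1 above Gnat3 without overlap, and the other neighbours overlapped.

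**Figure D1:**
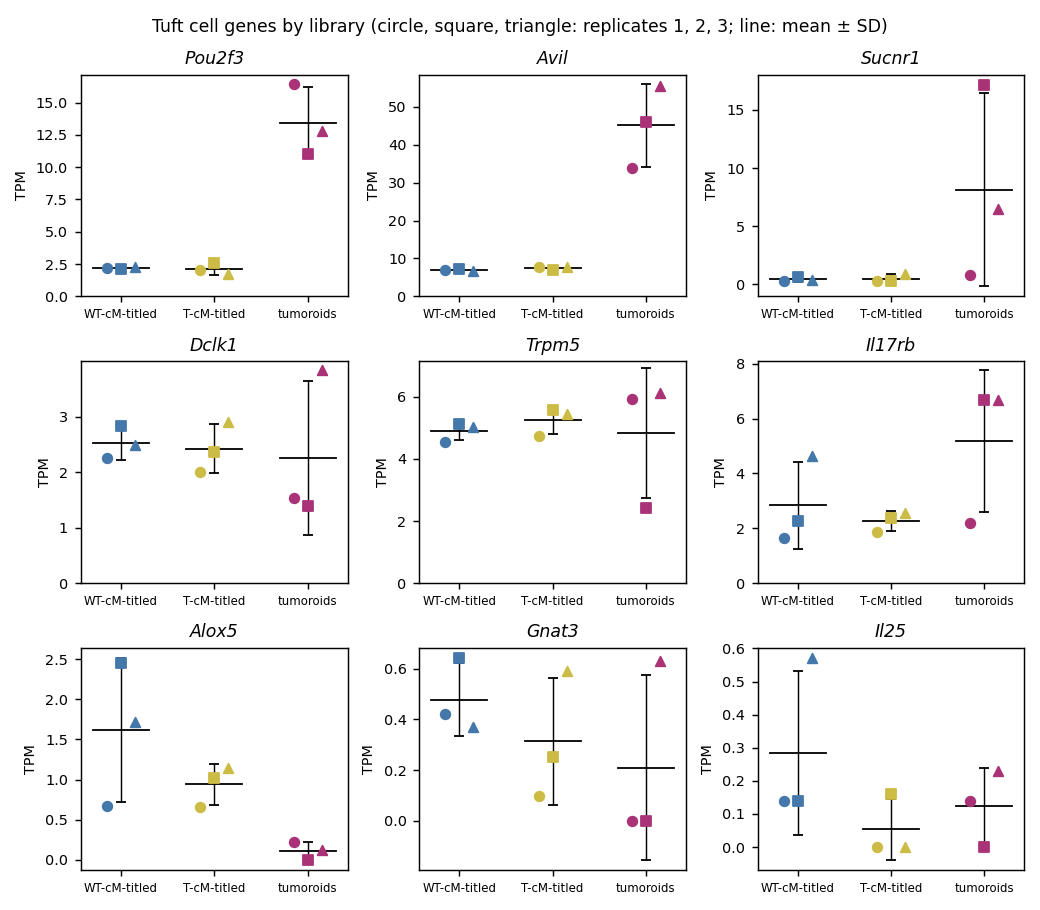
TPM of each of the 9 tuft cell genes (vertical axes, linear, 1 panel a gene) in the WT-cM-titled organoids, T-cM-titled organoids and tumoroids; each point is 1 library, its shape the replicate number, and lines are means ± SD (n = 3). Pou2f3 and Avil in tumoroids lay between 11.1 and 16.4 and between 33.8 and 55.6 TPM, above all 6 organoid libraries, and Alox5 in tumoroids lay at or below 0.22 TPM, under all of them.

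In tumoroids compared with WT-cM-titled organoids, 3 of the 7 tested members were called higher (Pou2f3, Avil and Sucnr1), 1 was called lower (Alox5) and 3 were not called (Dclk1, Trpm5 and Il17rb). Of all genes tested, 18.2% were called higher and 11.6% lower in this comparison. Compared with T-cM-titled organoids, the same split of 3 higher, 1 lower and 3 not called was found for the same genes, beside 19.4% of all genes higher and 11.8% lower. Both comparisons use the same 3 tumoroid libraries and 1 estimate of the spread. The median log2 fold change over the 7 members was 0.26 and 0.65, beside 0.15 and 0.16 over all genes tested. As the entry of Sucnr1 and Alox5 depended on the groups compared, these counts and medians describe the tested members only. The members are described singly below.

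Pou2f3, the POU-domain factor that specifies the tuft lineage, lies on chromosome 9 (GRCm38, chr9:43123939-43210369, minus strand). Its level was 2.20, 2.13 and 2.26 TPM in WT-cM-titled organoids, 2.03, 2.59 and 1.70 TPM in T-cM-titled organoids, and 16.4, 11.1 and 12.8 TPM in tumoroids (replicates 1, 2 and 3 here and in the sentences of this form that follow). All 3 tumoroid libraries lay above all 6 organoid libraries. On counts, tumoroids had 4.25-fold more Pou2f3 than WT-cM-titled organoids (log2 fold change 2.09 ± 0.29 (SE), adjusted p = 0.00042) and 4.53-fold more than T-cM-titled organoids (2.18, adjusted p = 0.00033). The call held in all 16 alternatives in each comparison, where the log2 fold change was between 1.85 and 2.36.

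Gnat3, the alpha subunit of gustducin that couples taste-type receptors, lies at chr5:17962549-18019834 and was barely detected. It had 4, 6 and 5 reads in WT-cM-titled organoids, 1, 2 and 6 reads in T-cM-titled organoids, and 0, 0 and 7 reads in tumoroids. The 2 tumoroid libraries without a read allow up to 0.136 and 0.112 CPM (3 counts, counting error only), so that a difference between groups was not detectable at this depth.

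Trpm5, the channel that depolarises the cell downstream of these receptors, lies at chr7:143069153-143094642 on the minus strand. It was measured at 4.56, 5.11 and 5.04 TPM in WT-cM-titled organoids, at 4.73, 5.58 and 5.44 TPM in T-cM-titled organoids, and at 5.94, 2.43 and 6.13 TPM in tumoroids. On TPM, tumoroid replicates 1 and 3 were above every organoid library and tumoroid replicate 2 below every one. On CPM, the 3 tumoroid libraries (11.6, 4.16 and 10.96) lay below the 3 T-cM-titled libraries. Trpm5 did not pass the test in tumoroids against WT-cM-titled organoids (log2 fold change −0.54, 95% interval −1.31 to 0.23, adjusted p = 0.24) or against T-cM-titled organoids (−0.61, −1.39 to 0.16, adjusted p = 0.18). Without tumoroid replicate 2, the log2 fold change was −0.21 and −0.29 in these comparisons. The scale also mattered here. The median log2 fold change of all tested genes was 0.15 and 0.16 with TMM factors, 0.10 and 0.10 with RLE factors, and 0.52 and 0.51 on log2(TPM + 1). Relative to those medians, Trpm5 was at −0.69 and −0.78 with TMM factors and at −0.61 and −0.68 on TPM. Exons of Tssc4 on the other strand share 3.44% of the exonic bases of Trpm5, and whether counting used strand is not given in the sources used here.

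Sucnr1, the receptor for succinate, lies at chr3:60081869-60087566. It had 3, 7 and 6 reads in WT-cM-titled organoids and 3, 3 and 11 reads in T-cM-titled organoids, at or little above the floor. Tumoroids had 9, 203 and 86 reads, or 0.408, 7.55 and 2.95 CPM. Tumoroid replicates 2 and 3 were above all organoid libraries, and tumoroid replicate 1 was within their range. In tumoroids Sucnr1 was called at 12.6-fold the level of WT-cM-titled organoids (log2 fold change 3.66, 95% interval 1.46 to 5.86, adjusted p = 0.014) and at 10.9-fold that of T-cM-titled organoids (3.45, 1.27 to 5.62, adjusted p = 0.017). The call against WT-cM-titled organoids was lost with limma voom (2.96, adjusted p = 0.068), and without WT-cM-titled replicate 1 (3.39, adjusted p = 0.051) or replicate 3 (3.61, adjusted p = 0.052). Leaving out tumoroid replicate 2 kept that call at an adjusted p of 0.047 with a log2 fold change of 2.55. The call against T-cM-titled organoids was lost with limma voom (2.89, adjusted p = 0.073), and without T-cM-titled replicate 1 (3.11, adjusted p = 0.057), T-cM-titled replicate 2 (3.22, adjusted p = 0.066) or tumoroid replicate 2 (2.33, adjusted p = 0.061), and the value without T-cM-titled replicate 3 was 4.30 (adjusted p = 0.025).

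Il25, the cytokine by which tuft cells signal to innate lymphoid cells, lies at chr14:54932695-54935837. No library had more than 6 reads, with 1, 1 and 6 in WT-cM-titled organoids, 0, 1 and 0 in T-cM-titled organoids, and 1, 0 and 2 in tumoroids. Only WT-cM-titled replicate 3 was above the floor of 3 counts, and no difference was detectable at this depth.

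Il17rb, a subunit of the receptor for Il25 that tuft cells also carry, lies at chr14:29996135-30008896 on the minus strand. Levels were 1.64, 2.25 and 4.64 TPM in WT-cM-titled organoids, 1.85, 2.39 and 2.56 TPM in T-cM-titled organoids, and 2.18, 6.66 and 6.67 TPM in tumoroids. The groups overlapped, with WT-cM-titled replicate 3 and tumoroid replicates 2 and 3 high. Il17rb did not pass the test in tumoroids against WT-cM-titled organoids (log2 fold change 0.26, 95% interval −0.89 to 1.41, adjusted p = 0.72) or T-cM-titled organoids (0.65, −0.52 to 1.81, adjusted p = 0.34). The first of these values changed sign, to −0.05, without WT-cM-titled replicate 1. Actr8 on the other strand shares 3.80% of the exonic bases of Il17rb.

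Alox5, the 5-lipoxygenase that starts leukotriene synthesis, lies at chr6:116410077-116461178 on the minus strand and was the 1 member called lower. It had 19, 69 and 70 reads in WT-cM-titled organoids, 20, 25 and 35 reads in T-cM-titled organoids, and 6, 0 and 4 reads in tumoroids. All tumoroid libraries were below all organoid libraries, and replicate 1 was the lowest of each organoid group. Tumoroids had 20.2-fold less Alox5 than WT-cM-titled organoids (log2 fold change −4.33, 95% interval −6.32 to −2.35, adjusted p = 0.0034) and 11.4-fold less than T-cM-titled organoids (−3.52, −5.48 to −1.56, adjusted p = 0.0092). The sizes rest on 10 reads over the 3 tumoroid libraries, and on log2(TPM + 1), which compresses low values, they were −1.17 (adjusted p = 0.0074) and −0.80 (adjusted p = 0.039, below the fold threshold). Without tumoroid replicate 1 they were −5.18 and −4.37 (adjusted p = 0.0047 and 0.0096).

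Avil, the actin-bundling protein advillin of the tuft cell's microvilli and rootlets, lies at chr10:127000709-127020994. Its level was 6.88, 7.17 and 6.73 TPM in WT-cM-titled organoids, 7.65, 7.07 and 7.79 TPM in T-cM-titled organoids, and 33.8, 46.1 and 55.6 TPM in tumoroids. The organoid libraries differed little among themselves, and all tumoroid libraries were above them. Tumoroids had 4.47-fold more Avil than WT-cM-titled organoids (log2 fold change 2.16 ± 0.19 (SE), adjusted p = 3.7e-05) and 4.19-fold more than T-cM-titled organoids (2.07, adjusted p = 4.5e-05). The call held in all 16 alternatives in each comparison, with a log2 fold change between 1.88 and 2.51. Tsfm on the other strand shares 4.86% of the exonic bases of Avil.

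Dclk1, a microtubule-associated kinase that is the usual histological marker of mouse tuft cells, lies at chr3:55242364-55539068. It was measured at 2.25, 2.84 and 2.49 TPM in WT-cM-titled organoids, at 2.01, 2.37 and 2.90 TPM in T-cM-titled organoids, and at 1.53, 1.39 and 3.85 TPM in tumoroids. Tumoroid replicates 1 and 2 were below all organoid libraries and tumoroid replicate 3 above all of them on this scale, and on CPM tumoroid replicate 3 (16.5) was inside the organoid range. Dclk1 did not pass the test in tumoroids against WT-cM-titled organoids (log2 fold change −0.71, 95% interval −1.55 to 0.14, adjusted p = 0.16) or T-cM-titled organoids (−0.63, −1.47 to 0.22, adjusted p = 0.21). Without tumoroid replicate 3 it was called lower in both comparisons (−1.33, adjusted p = 0.0039, and −1.25, adjusted p = 0.0051). Over the same 3 tumoroid libraries, Pou2f3 was highest in replicate 1 and Dclk1 in replicate 3. Relative to the median of all genes, Dclk1 was at −0.85 and −0.79 with TMM factors and at −0.71 and −0.65 on TPM.

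**Figure D2:**
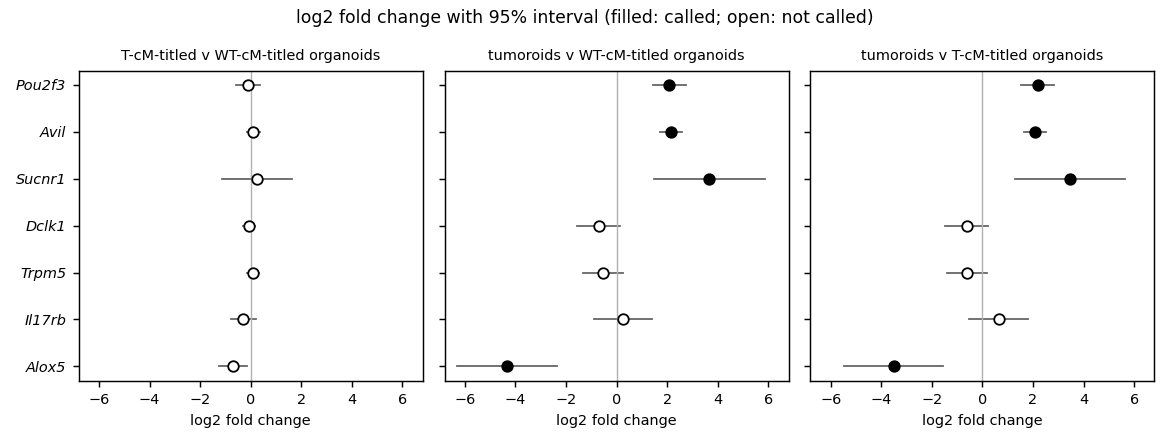
log2 fold change (horizontal axes) of the 7 tested tuft cell genes in each of the 3 comparisons, with 95% intervals; filled points were called and open points were not. Pou2f3, Avil and Sucnr1 were called higher and Alox5 lower in both comparisons of tumoroids (at 2.09, 2.16, 3.66 and −4.33 against WT-cM-titled organoids), and no point was filled between the organoid groups.

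The bases upstream of the start of transcription are shown for Sucnr1, Avil and Alox5, 3 of the 4 members that were called, since Pou2f3 is a POU factor and such factors are known for binding an octamer. Sequences are from a set of promoters of RefSeq genes (GRCm38.p6). The set used here held a window for 7 of the 9 members, all but Pou2f3 and Il25. Each run is the 250 bases before the start, read 5′ to 3′ on the gene's strand, and capitals mark the octamer ATGCAAAT, searched on both strands (ATTTGCAT on the other).
Sucnr1, chr3:60081619-60081868, plus strand: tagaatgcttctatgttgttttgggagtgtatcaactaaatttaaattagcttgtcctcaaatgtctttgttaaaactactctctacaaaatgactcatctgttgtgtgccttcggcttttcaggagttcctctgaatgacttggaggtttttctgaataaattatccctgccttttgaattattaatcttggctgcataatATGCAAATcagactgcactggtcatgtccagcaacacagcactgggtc
Avil, chr10:127000459-127000708, plus strand: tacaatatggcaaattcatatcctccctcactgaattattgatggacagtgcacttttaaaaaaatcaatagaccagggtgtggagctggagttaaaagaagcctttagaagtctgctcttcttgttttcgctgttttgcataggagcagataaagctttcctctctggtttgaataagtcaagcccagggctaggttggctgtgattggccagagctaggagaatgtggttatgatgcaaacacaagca
Alox5, chr6:116461179-116461428, minus strand: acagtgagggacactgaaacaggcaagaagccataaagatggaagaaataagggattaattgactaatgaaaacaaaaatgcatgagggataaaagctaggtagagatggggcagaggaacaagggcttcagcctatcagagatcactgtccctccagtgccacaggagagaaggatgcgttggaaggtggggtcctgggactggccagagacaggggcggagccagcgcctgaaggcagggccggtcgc
The octamer was found in the window of Sucnr1, starting 48 bases before the start, and in no window of the other members that had one. It was found in 1.60% of 32851 promoter windows of the same length (526 windows) and in 1.41% of the windows of tested genes. A match describes these letters alone, and no binding was measured.

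Between the organoid groups, which addresses the effect of tumour conditioned medium on WT epithelium, none of the 7 tested members was called by edgeR's quasi-likelihood test with replicate number as a block, beside 1.10% of all genes tested in either direction. No member was called by limma voom or DESeq2 either, and 1 member, Alox5, had an unadjusted p below 0.05, as did 3568 of all 16208 genes. The median log2 fold change over the 7 members was −0.07. The intervals were narrow for the better counted members. With positive values for higher in the T-cM-titled group, the 95% interval of the log2 fold change was −0.32 to 0.18 for Dclk1, −0.16 to 0.33 for Trpm5, −0.16 to 0.38 for Avil and −0.56 to 0.37 for Pou2f3, so that a change past the fold threshold lay outside each of them. For Il17rb it was −0.78 to 0.20 and for Sucnr1, at 3 to 11 reads, −1.12 to 1.63. Trpm5 was higher in the T-cM-titled library in 3 of 3 pairs, by 0.09 on the log2 scale (adjusted p = 0.75).

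Alox5 had the largest log2 fold change between the organoid groups of the 7 tested members. It was lower in T-cM-titled organoids by a log2 fold change of −0.71 (95% interval −1.26 to −0.16, adjusted p = 0.097), which did not pass the test. The log2 difference was 0.02, −1.26 and −0.63 in pairs 1, 2 and 3, so that pair 1 did not share it. Without replicate 1 the value was −0.94 with an adjusted p of 0.0051, still under the fold threshold. Without replicate 2 it was −0.38 with an adjusted p of 0.75, in a fit that called 1 of all tested genes. Without the replicate block it was −0.80 with an adjusted p of 0.93, in a fit that called no gene. The partners of Alox5 in leukotriene synthesis, named after their values were seen, were Alox5ap (−0.71, adjusted p = 0.054) and Ltc4s (−0.48, adjusted p = 0.18), and neither was called.

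Tuft cell genes outside the 9 members were taken from 5 lists. The counts called in each list are to be read against the shares of all genes, which were 18.2% higher and 11.6% lower against WT-cM-titled organoids and 19.4% higher and 11.8% lower against T-cM-titled organoids. Of 5 tested genes of eicosanoid synthesis, 2 were called higher and none lower in tumoroids against WT-cM-titled organoids, and 3 higher against T-cM-titled organoids. Ptgs1, the constitutive cyclooxygenase, was at 2.42, 2.98 and 3.63 CPM in WT-cM-titled organoids, at 1.90, 5.16 and 6.43 CPM in T-cM-titled organoids, and at 69.7, 102.6 and 181.8 CPM in tumoroids. The log2 fold change was 5.29 (adjusted p = 5.4e-05) and 4.72 (adjusted p = 8.3e-05) against the 2 organoid groups, without overlap. Hpgds, the prostaglandin D synthase, was at 0.989 to 2.13 CPM in organoids and at 9.92, 48.1 and 9.69 CPM in tumoroids (3.76, adjusted p = 0.0017, and 3.84, adjusted p = 0.0015). Both calls held with each library left out, in the tumoroid libraries in which Alox5 was lower. Pla2g4a, the phospholipase that frees arachidonic acid, was at 22.1, 4.46 and 62.2 CPM in tumoroids and was called against T-cM-titled organoids alone (2.38, adjusted p = 0.034). That call was lost without tumoroid replicate 3 (adjusted p = 0.16), T-cM-titled replicate 2 (adjusted p = 0.10) or T-cM-titled replicate 3 (adjusted p = 0.11), and without tumoroid replicate 2 it was called against WT-cM-titled organoids too (2.55, adjusted p = 0.0049). Alox5ap and Ltc4s did not pass the test in either comparison, but without tumoroid replicate 3 Ltc4s was called lower against WT-cM-titled organoids (−2.14, adjusted p = 0.022, from −1.41).

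Of 4 transcription factors, 2 were called higher in tumoroids in each comparison, beside 18.2% and 19.4% of all genes. Sox9 was at 18.4 to 27.8 CPM in organoids and at 88.1, 138.1 and 100.4 CPM in tumoroids (2.24 and 2.21, adjusted p = 5.5e-05 and 6.1e-05). Ascl2 was at 2.10 to 8.08 CPM in organoids and at 59.3, 35.9 and 48.2 CPM in tumoroids (3.08 and 3.70, adjusted p = 0.00046 and 0.00019). Both are also expressed by crypt stem and progenitor cells and are known Wnt targets, and neither marks tuft cells alone. The other two, Gfi1b and Spib, which were named after their values were seen, did not pass the test. Gfi1b was at 0.770, 0.223 and 7.59 CPM in tumoroids against 0.133 to 0.495 CPM in organoids, at most 9 reads a library. Tumoroid replicate 2 was thus inside the organoid range for Gfi1b. Spib was at 4.85, 0.744 and 3.13 CPM in tumoroids against 5.34 to 9.74 CPM in organoids. Without tumoroid replicate 1 or 2, Gfi1b was called higher in both comparisons (log2 fold change 3.48 to 3.67). In those fits tumoroid replicate 3 lay far above the other tumoroid library left. Spib was called lower against WT-cM-titled organoids without tumoroid replicate 1 (−2.06) or 2 (−1.04). Against T-cM-titled organoids it was called lower without tumoroid replicate 1 (−1.89).

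Of 8 chemosensory signalling genes, 1 was called higher and 1 lower in each comparison of tumoroids, near the shares of all genes (18.2% and 19.4% higher, 11.6% and 11.8% lower). Itpr2, an inositol trisphosphate receptor, was at 4.74 to 8.01 CPM in organoids and at 12.1, 32.1 and 139.5 CPM in tumoroids (3.52 and 3.17, adjusted p = 0.0042 and 0.0063), a call that held with each library left out. Ffar3, a receptor for short-chain fatty acids, had at most 5 reads in a tumoroid library and 6 to 21 reads in an organoid library (−2.05 and −2.07, adjusted p = 0.025 and 0.023). That call was lost without tumoroid replicate 2 (adjusted p = 0.065 and 0.060), and without replicate 2 or 3 of the organoid group compared (adjusted p between 0.059 and 0.093). Plcg2 was not called, with 15.2, 12.4 and 95.4 CPM in tumoroids, and was called higher in both comparisons without tumoroid replicate 1 or 2 (2.12 to 2.25). Gng13 was called lower against T-cM-titled organoids without tumoroid replicate 3 (−3.12, at 0 and 2 reads in the tumoroid libraries left).

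Of 10 kinases and adaptors that tuft cells share with blood cells, 1 was called higher and 4 lower against WT-cM-titled organoids, where 18.2% and 11.6% of all genes were called higher and lower, and 1 higher and 3 lower against T-cM-titled organoids, beside 19.4% and 11.8%. The number called lower was 2 to 4 in the first comparison and 1 to 4 in the second with 1 library left out, at its lowest without WT-cM-titled replicate 2 or 3 in the first (2) and without T-cM-titled replicate 3 in the second (1). Their median log2 fold change was −0.69 and −0.44, beside 0.15 and 0.16 over all genes. Lrmp was called at −1.63 and −1.65 (adjusted p = 0.015 and 0.013), the second being lost without T-cM-titled replicate 3 (−1.47, adjusted p = 0.052). Pik3r5, a regulatory subunit of phosphoinositide 3-kinase gamma, was called at −1.75 and −1.52 (adjusted p = 0.021 and 0.035). Its call was lost without replicate 2 or 3 of WT-cM-titled organoids in both comparisons (adjusted p between 0.050 and 0.063) and without replicate 2 or 3 of T-cM-titled organoids in the second (0.073 and 0.11). Fyb was called against WT-cM-titled organoids alone (−1.17, adjusted p = 0.040). That call was lost with each library left out except WT-cM-titled replicate 1 and tumoroid replicate 3 (adjusted p between 0.050 and 0.13), and without tumoroid replicate 3 Fyb was called in the other comparison (−1.32, adjusted p = 0.036). Skap2, an adaptor of Src kinases, was the gene called higher (1.24 and 1.18, adjusted p = 0.0045 and 0.0054), and its fold dropped under the threshold without tumoroid replicate 3 (0.79 and 0.73).

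Among 9 other tuft markers, 3 were called higher and 2 lower in each comparison of tumoroids, beside 18.2% and 19.4% of all genes higher and 11.6% and 11.8% lower. Kctd12, an auxiliary subunit of GABA-B receptors, was at 30.6 to 41.0 CPM in organoids and at 9.20, 3.38 and 5.94 CPM in tumoroids (−2.54 and −2.45, adjusted p = 0.00024 and 0.00028). Sh2d7, an SH2-domain adaptor, was at 6.05 to 10.6 CPM in organoids and at 3.72, 1.15 and 2.30 CPM in tumoroids (−1.87 and −1.67, adjusted p = 0.0058 and 0.0099). Krt18, a keratin of simple epithelia, rose by 1.43 and 1.32 (adjusted p = 0.0013 and 0.0019). These 3 genes were called with each library left out. Cd24a rose by 1.26 and 1.24 (adjusted p = 0.030 and 0.032) with tumoroid replicate 2 inside the organoid range, and that call was lost without tumoroid replicate 3 (0.61 and 0.57) or any library of the organoid group compared (adjusted p between 0.055 and 0.10). Nrep was called against T-cM-titled organoids alone (1.07, adjusted p = 0.015), and not without T-cM-titled replicate 2 (0.96) or 3 (1.06, adjusted p = 0.052) or tumoroid replicate 3 (0.93), while between the organoid groups it was called lower in T-cM-titled organoids without replicate 1 (−1.04) and not otherwise. Sh2d6 was called lower in both comparisons only without tumoroid replicate 1 (−2.10 and −2.07).

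Krt23, an acidic keratin, was the 1 gene of the 5 tuft lists called between the organoid groups. It was at 37.9, 48.3 and 54.3 CPM in WT-cM-titled organoids, at 56.1, 123.9 and 128.5 CPM in T-cM-titled organoids, and at 180.1, 97.6 and 310.6 CPM in tumoroids. T-cM-titled organoids lay above WT-cM-titled organoids without overlap (log2 fold change 1.08 ± 0.11 (SE), adjusted p = 6.3e-08). The call was lost on fold and adjusted p without replicate 2 (0.92, adjusted p = 0.22), in a fit that called 1 of all tested genes. Without replicate 3 it was lost on the fold alone (0.97, adjusted p = 1.2e-06). Tumoroids were also above WT-cM-titled organoids (2.07, adjusted p = 0.0038), and not called against T-cM-titled organoids (0.93, adjusted p = 0.096), unless tumoroid replicate 2 was left out (1.24, adjusted p = 0.022). No member of the 9 shared this difference between the organoid groups at the same call rule.

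**Figure D3:**
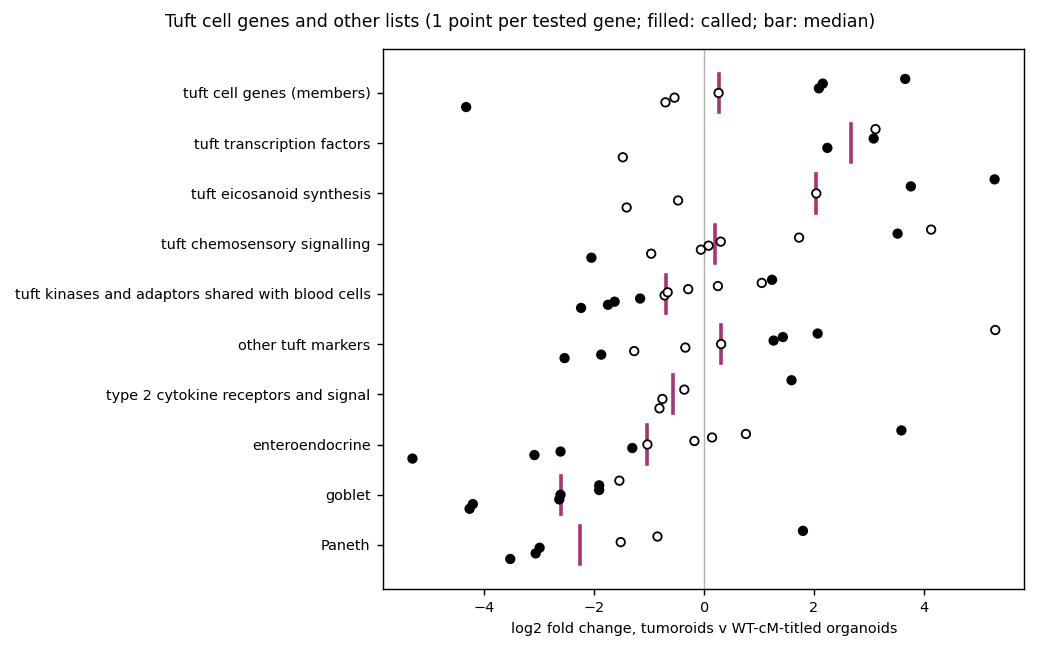
log2 fold change of tumoroids against WT-cM-titled organoids (horizontal axis) for each tested gene of the tuft cell members and of 9 lists (rows); filled points were called, open points were not, and bars are list medians. The tuft rows held points on both sides of 0, with medians from −0.69 for kinases and adaptors to 2.66 for transcription factors, while the median of the goblet row was −2.62.

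The receptors that answer to type 2 cytokines were measured beside them. Il4ra, the shared receptor chain for Il4 and Il13, was called higher in tumoroids in both comparisons (1.59 and 1.71, adjusted p = 0.0022 and 0.0015), at 27.5 to 49.5 CPM in organoids and 70.1, 109.5 and 158.9 CPM in tumoroids. The transcripts of Il4 and Il13 themselves had 0 reads in all 9 libraries, which allows up to 0.204 CPM in the shallowest. Il17ra, the partner chain of Il17rb, was lower in every tumoroid library than in every organoid library, but under the fold threshold (−0.81 and −0.85, adjusted p = 0.0027 and 0.0020). Il13ra1 was called lower in both comparisons only without tumoroid replicate 3 (−1.27 and −1.25).

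Markers of cells that could carry the same genes were examined. Fibroblast markers summed to at most 0.687 CPM in any library, and none of the 7 was tested. Among 11 leukocyte markers, those with 0 reads in all libraries included Cd3e and Cpa3, and the summed level of the list was 1.54 to 4.83 CPM in WT-cM-titled organoids, 1.80 to 4.79 CPM in T-cM-titled organoids and 8.07 to 26.5 CPM in tumoroids. Most of the tumoroid sums were Csf1r (2.72, 20.4 and 4.50 CPM in tumoroids) and Cd68 (4.58, 5.58 and 20.5 CPM). Of the 4 tested leukocyte markers, Cd68 was called higher in both comparisons (3.75 and 4.22) and Csf1r against WT-cM-titled organoids (3.00, adjusted p = 0.036), a call lost without WT-cM-titled replicate 1 or 2, T-cM-titled replicate 2 or tumoroid replicate 2 (adjusted p between 0.053 and 0.17). S100a8 and Lyz2 were not called. S100a8 had 0 reads in all organoid libraries and at most 8 in a tumoroid library, so it entered the test through tumoroids alone. At these low counts, S100a8 was called higher in both comparisons without tumoroid replicate 2. Lyz2 was at −2.53 and −1.90 on the log2 scale (adjusted p = 0.11 and 0.23), while Itgam, which was not tested, was at 0.227 to 0.409 CPM in tumoroids and at 0.660 to 1.46 CPM in organoids. Adgre1, a macrophage marker, had 0 reads in tumoroids. Tumoroid replicate 2, with the highest Csf1r, was also the library with the highest Sucnr1 and Hpgds, but Cd68 was highest in tumoroid replicate 3. Ptprc, of the list shared with blood cells, overlapped between groups. It was at 0.181 to 0.706 CPM in tumoroids, 0 to 0.486 CPM in WT-cM-titled organoids and 0.317 to 0.902 CPM in T-cM-titled organoids. The part of other cells in these results was not tested. Neuron and glia markers summed to between 2.37 and 6.33 CPM, with Sox10 at 0 reads in all libraries.

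Markers of the other secretory lineages were counted in the same comparisons, in which 11.6% and 11.8% of all genes were called lower and 18.2% and 19.4% higher. Of 7 goblet cell markers, 6 were called lower against WT-cM-titled organoids and 7 against T-cM-titled organoids, with a median log2 fold change of −2.62 and −2.66. The call of Agr2 in the second was lost with each library left out except tumoroid replicates 2 and 3 (adjusted p between 0.059 and 0.11), and without either of those Agr2 was called in the first as well. Of 6 Paneth cell markers, 3 were called lower and 1, Mmp7, higher in each comparison (medians −2.26 and −2.06). The call of Lyz1 (−3.00 and −2.92) was lost in both with each library left out except tumoroid replicates 2 and 3 (adjusted p between 0.056 and 0.10), and that of Mmp7 against WT-cM-titled organoids without WT-cM-titled replicate 1 (adjusted p = 0.052). Of 9 enteroendocrine markers, 4 and 3 were called lower and 1, Neurog3, higher, and their summed level of 73.5 to 685 CPM in tumoroids overlapped that of 263 to 532 CPM in organoids. Without tumoroid replicate 1, 6 were called lower and none higher in both comparisons. The call of Neurog3 was also lost without replicate 2 or 3 of the organoid group compared (adjusted p between 0.091 and 0.12) and, against T-cM-titled organoids, without tumoroid replicate 3 (adjusted p = 0.051). Chga lost its call against WT-cM-titled organoids without WT-cM-titled replicate 3 or tumoroid replicate 2 (adjusted p = 0.068 and 0.060), and Cck against T-cM-titled organoids without T-cM-titled replicate 1 or 3 (adjusted p = 0.060 and 0.069). Enteroendocrine Gcg was also called lower in T-cM-titled than in WT-cM-titled organoids (−1.11, adjusted p = 1.0e-05). The call was lost without replicate 2 (−0.92, adjusted p = 0.39) or replicate 3 (−0.87, adjusted p = 0.00067). The fit without replicate 2 called 1 of all tested genes.

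Within the 6 organoid libraries, replicate 1 of each group was the lowest for the members as a whole. The mean standardised level of the 6 members with at least 20 reads on average was −1.07 and −0.79 in replicate 1 of the WT-cM-titled and T-cM-titled groups, and between 0.23 and 0.77 in replicates 2 and 3. Over these 6 libraries, Dclk1 had a Pearson correlation of 0.84 with Alox5 and 0.79 with Trpm5 on log2 CPM, but of −0.01 with Pou2f3, and Pou2f3 and Avil had one of −0.42. Same-numbered libraries deviated together and are not independent points, so these values describe 6 libraries and no more. The 10 genes whose pattern was most like the members' mean, of 11722 compared, were Acot13, Dgat2, Mpc1, Sdf4, Acadm, Gpx4, Fam213b, Guca2b, Fyb and Gucd1, with correlations from 0.99 to 1.00. Fyb was the 1 of them on a tuft list (0.99), and the others had means of 1300 to 9680 reads a library. Of other genes on the tuft lists, Rgs13 and Sh2d7 had correlations of 0.95 with that mean, and Pla2g4a and Plcg2 of −0.92 and −0.86.

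**Figure D4:**
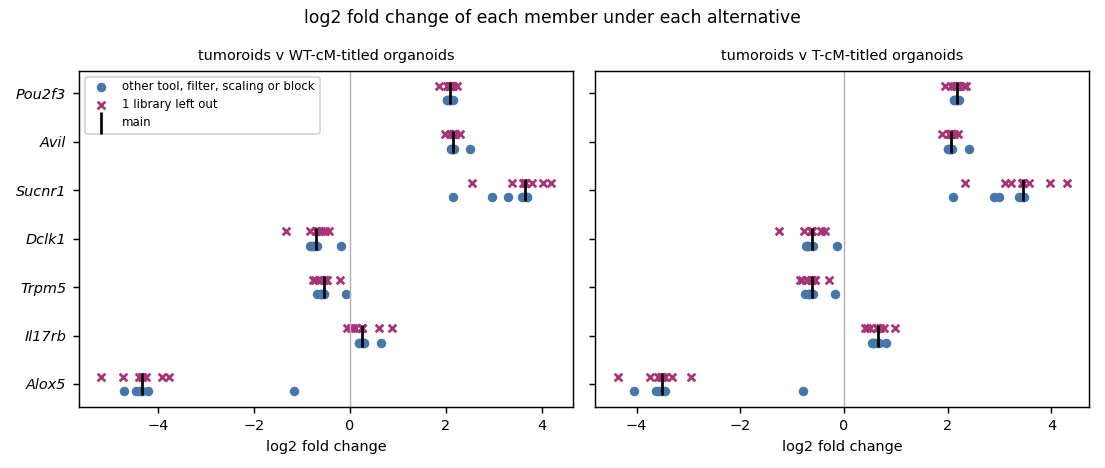
log2 fold change (horizontal axes) of the 7 tested tuft cell genes in tumoroids against each organoid group under each alternative; black bars are the main values, circles other tools, filters, scalings or the replicate block, and crosses fits with 1 library left out. Pou2f3 and Avil stayed between 1.85 and 2.51, while Dclk1 ranged from −1.33 to −0.14 and Sucnr1 from 2.10 to 4.30.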

How the data were processed

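RNA-sequencing libraries (polyA selection, stranded TruSeq kit, paired ends) were made from 6 organoid and 3 tumoroid cultures. The authors aligned reads to mm10 with STAR (2.5.3a) and counted them on Gencode genes (release 13), and the deposited raw counts are not normalised. The authors also deposited TPM, in which counts are divided by gene length and scaled per library. The counting tool, its strand setting and the lengths are not given in the sources used here. Positions are from Gencode release 21 on the same build (GRCm38).

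Genes with at least 1 TPM in at least 1 library were tested on counts with edgeR 4.0.16 (R 4.3.3), TMM factors and the earlier form of the quasi-likelihood test. The organoid groups were compared over 6 libraries blocked by replicate number, after the study's model with a sample effect. Same-numbered organoid libraries deviated together from their group means (r = 0.55, 0.34 and 0.55 for replicates 1, 2 and 3). Tumoroids were compared over all 9 libraries without a block. Tumoroid and organoid numbers did not pair (r between −0.07 and 0.20). Within-group pairs of libraries differed by at least 16.7 times the sampling noise (chi-square per degree of freedom), so none was counted as a repeat. The labels do not tie each culture to a donor, so that p-values measure the spread between these samples. The floor of 3 counts covers counting error only, as the reads carried no molecular identifiers and copies of a molecule are not independent.

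Alternatives were RLE factors, limma voom (limma 3.58.1), DESeq2 1.42.0, the edgeR 4 form of the test, no TPM filter, log2(TPM + 1) with limma, no fold threshold, the block left out or added, and each library left out. Leaving out libraries for the gene lists was added after the data were seen. Named genes were the 9 members, up to 5 called genes of each list and comparison by smallest p, and the 10 genes most like the members' mean log2 CPM (prior count 2) over organoid libraries. Some list genes that the rule names are not reported here. The methods were tested on simulated counts. The members and lists were chosen with earlier results of these data known.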

Additional observations from a re-analysis of the deposited data

How the results depend on the processing

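The count of called members was 0 under all 11 alternatives between the organoid groups and 3 to 5 in each comparison of tumoroids, where the main count was 4. With the replicate block added, the count was 4 in both comparisons of tumoroids. Without the replicate block, or on TPM, no gene at all was called between the organoid groups. A count of 0 members in those settings therefore cannot show whether the block mattered for the members. Over all genes, the number called between the organoid groups was 179, and it was 0 without the block or on TPM, 118 with limma voom, 93 with DESeq2, 1634 with no fold threshold, and 385, 1 and 94 without replicates 1, 2 and 3.

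Small differences between the organoid groups changed sign with a replicate left out. Dclk1 was at 0.0266 without replicate 2 (range −0.21 to 0.0266 over the replicates left out). Without replicate 3, Pou2f3 was at 0.0857 (range −0.28 to 0.0857), Sucnr1 at −0.62 (range −0.62 to 0.81) and Il17rb at 0.13 (range −0.52 to 0.13). Il17rb in tumoroids was at −0.0549 without WT-cM-titled replicate 1 (range −0.0549 to 0.88 against that group). None of these was called, and the cause was not tested. Depth limited Il25 and Gnat3, which had at most 7 reads in any library.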
